A study of Mus musculus with 8 samples.

Results

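The p53 pathway and growth arrest genes were followed in 3 mouse fibroblast lines. The set was a list of 37 genes, written as p53 itself, its inhibitors, genes that p53 is known to activate and other growth arrest genes, and a member was any probe on the array whose gene symbol was on the list. Of the 37 genes, 33 had at least 1 probe, out of 15967 genes on the array. These 33 genes had 56 of the 24613 probes. No probe of Trp53, Bax, Sesn1 or Gdf15 was found by symbol, so the level of the p53 transcript itself was not analysed here.

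Flp-In-3T3 is a mouse line, labelled as embryonic fibroblasts, with a single marked site at which a plasmid can be inserted. RNA was read on 8 Illumina arrays from 3 lines: a Pax6 line (2 arrays, passages 9 and 15), a Pax6(5a) line (3 arrays, passages 8, 8 and 13) and the unmodified control line (3 arrays, passages 13, 13 and 19). Pax6 is a paired-box transcription factor of the developing eye, brain and pancreas, and Pax6(5a) is its splice form with an extra exon in the DNA-binding paired domain. The Pax6 and Pax6(5a) lines carried the mouse cDNA in a plasmid that expresses it from an elongation factor promoter and were grown in 150 µg/ml hygromycin, which blocks protein synthesis, while control cells were grown in 100 µg/ml Zeocin, an antibiotic of the bleomycin family that cuts DNA. The unmodified cells carry a gene for resistance to Zeocin. Whether a Pax6 line is a clone or a pool of transfected cells is not given in the sources used here. Insert, antibiotic and line cannot be told apart in this design, since each insert is represented by 1 line and no control array came from cells in hygromycin. The passages of the lines also differed, and passage 13 was the only one read in more than 1 line. The labels do not say if 2 preparations of 1 passage were grown apart, so that p-values measure the spread between these arrays, part of which may be technical.

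The transcription factor p53 is stabilized when DNA is damaged or cells are stressed, and it activates genes that stop the cell cycle, repair DNA or start cell death. Among these genes is Mdm2, which encodes the ubiquitin ligase that marks p53 for destruction and so closes a feedback loop. Cdkn1a, encoding the cyclin kinase inhibitor p21, is the best known target for arrest, and Bax, Bbc3 (PUMA) and Pmaip1 (NOXA) are the best known targets for death through mitochondria. Several members also answer to other signals, among them the Gadd45 and Btg genes.

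Of the 33 measured genes, 21 had a signal above background on all 8 arrays (detection p-value under 0.01), 4 on some arrays and 8 on none. The 4 were Mdm4, Gadd45b, Apaf1 and Sesn2. The 8 were Ccng2, Btg2, Cdkn2a, Cdkn2b, Bbc3, Pmaip1, Sesn3 and Rrm2b. Signals are given as log2 of the quantile-normalized intensity. A gene is given by the brightest of its probes, and levels are compared between lines for 1 probe at a time, since the brightness of different probes cannot be compared. Between 10083 and 10685 probes were detected per array. Of 12 fibroblast markers 9 were detected on all 8 arrays, while none of 6 epithelial and none of 3 measured leukocyte markers was detected on any. Cdh5, a cadherin of endothelium, was the 1 endothelial marker of 5 detected. The single Pax6 probe was not above background on any array (log2 5.50 to 5.83), also in the Pax6 line, and whether it lies within the inserted cDNA is not given in the sources used here, so it does not check the labels.

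Reference promoters serve to describe the members in sequence, apart from their signals. RefSeq promoters of build GRCm38.p6, each from 250 bases before to 50 bases after a start site, were available for 30 of the 37 genes (39 promoters). They were searched for the p53 half-site, the short consensus that p53 binds as a pair of copies. Only exact matches to the consensus were counted, so that a copy with a mismatch was not. At least 1 half-site was present in 11 of the 39 member promoters (28.2%), against 8.36% of all 32851 promoters. The list was written in part from genes that p53 is known to activate. The higher share is therefore no independent result about the members. A pair of half-sites separated by 0 to 13 bases was present in 1 member promoter, an upstream promoter of Cdkn1a, against 0.0731% of all promoters. GGGCGG, a GC box, was found in 71.8% of member promoters and 35.7% of all promoters, CCAAT in 46.2% and 37.4%, and TATAAA in 10.3% and 13.6%, each on either strand. None of the 12 half-sites counted in member promoters overlapped one of these other motifs. The same half-site of Aen was counted in both of its overlapping promoters, also among the 11 promoters above. By gene, 10 of the 30 had a half-site. A match is only a run of letters in a short window, and binding of p53 was not measured.

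4 of these promoters are shown, with p53 half-sites in capitals: those of Plk3 and Ccng1, the members with the largest rises in the Pax6 line, of Mdm2, which was higher in both Pax6 lines at an adjusted p under 0.05, and the Cdkn1a promoter with the paired half-sites. The Plk3 promoter (chr4:117133914-117134213, minus strand) held no half-site. The Ccng1 promoter (chr11:40755237-40755536, minus strand) held 1, which began 185 bases before the start site. The Mdm2 promoter (chr10:117710709-117711008, minus strand) held 1, 186 bases before the start. The Cdkn1a promoter (chr17:29090729-29091028, plus strand) held 2, which began 73 and 51 bases before the start, and a second Cdkn1a promoter held none. In the Cdkn1a promoter shown, the stretch that directly follows the later half-site differs from the consensus at 1 base. It is therefore left in lower case.
Plk3: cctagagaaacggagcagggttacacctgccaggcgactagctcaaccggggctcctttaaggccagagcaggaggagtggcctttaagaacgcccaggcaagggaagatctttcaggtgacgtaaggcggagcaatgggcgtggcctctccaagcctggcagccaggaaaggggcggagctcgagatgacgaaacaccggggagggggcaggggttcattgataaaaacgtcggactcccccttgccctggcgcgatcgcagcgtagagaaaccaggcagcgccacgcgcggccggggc
Ccng1: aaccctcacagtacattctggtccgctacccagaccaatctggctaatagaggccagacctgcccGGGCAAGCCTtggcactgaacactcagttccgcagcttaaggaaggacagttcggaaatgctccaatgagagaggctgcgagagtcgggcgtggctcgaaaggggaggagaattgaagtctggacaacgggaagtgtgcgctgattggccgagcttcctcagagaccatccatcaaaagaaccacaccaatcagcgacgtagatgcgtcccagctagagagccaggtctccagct
Mdm2: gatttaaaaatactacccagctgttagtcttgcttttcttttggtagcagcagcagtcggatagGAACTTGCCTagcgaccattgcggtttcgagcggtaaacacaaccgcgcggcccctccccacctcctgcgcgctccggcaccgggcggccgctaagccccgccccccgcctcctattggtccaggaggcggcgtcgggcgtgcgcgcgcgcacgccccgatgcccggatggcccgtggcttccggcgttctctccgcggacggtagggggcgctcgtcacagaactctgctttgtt
Cdkn1a: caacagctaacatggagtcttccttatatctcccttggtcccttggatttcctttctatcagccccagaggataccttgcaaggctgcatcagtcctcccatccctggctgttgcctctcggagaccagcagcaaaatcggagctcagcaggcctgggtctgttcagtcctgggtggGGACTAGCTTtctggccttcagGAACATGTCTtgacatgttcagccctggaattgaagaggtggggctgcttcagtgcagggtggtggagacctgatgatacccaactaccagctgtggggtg

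In the Pax6 line, 3 members rose and 2 fell relative to the control line. The 3 that rose, Plk3, Ccng1 and Gadd45g, all belong to the cell cycle arrest group, and the 2 that fell were the death gene Bid and the autophagy gene Dram1. A gene was called at an adjusted p under 0.01 (limma, Benjamini-Hochberg over all probes) with a fold change (FC) of at least 1.5, and "rose" and "fell" are used for called genes. Of all genes on the array, 1.03% rose and 1.42% fell in the Pax6 line, against 9.09% and 6.06% of the 33 members. At an adjusted p under 0.05 with no minimum FC, 7 members were higher and 2 lower, which is 21.2% and 6.06% of the members, where 3.9% of all genes were higher and 3.82% lower. The median log2 difference of the members was 0.03, and that of all genes 0.00. The members were chosen with results of these arrays known, and these shares are a description of the list.

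In the Pax6(5a) line no member was called, with 11 at an unadjusted p under 0.05 in limma. The share of all genes at an unadjusted p under 0.05 was not worked out. Such counts, here and below, therefore do not set the listed genes apart from all genes. Of all genes 0.551% rose and 0.651% fell there. At an adjusted p under 0.05 there were 4 members higher (Mdm2, Ccng1, Plk3 and Polk) and 2 lower (Bid and Dram1), or 12.1% and 6.06% of the members, against 2.55% and 2.32% of all genes. The median of the members was 0.06 on the log2 scale. Both comparisons used the same 3 control arrays, so that they are not independent of each other.

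**Figure D1:**
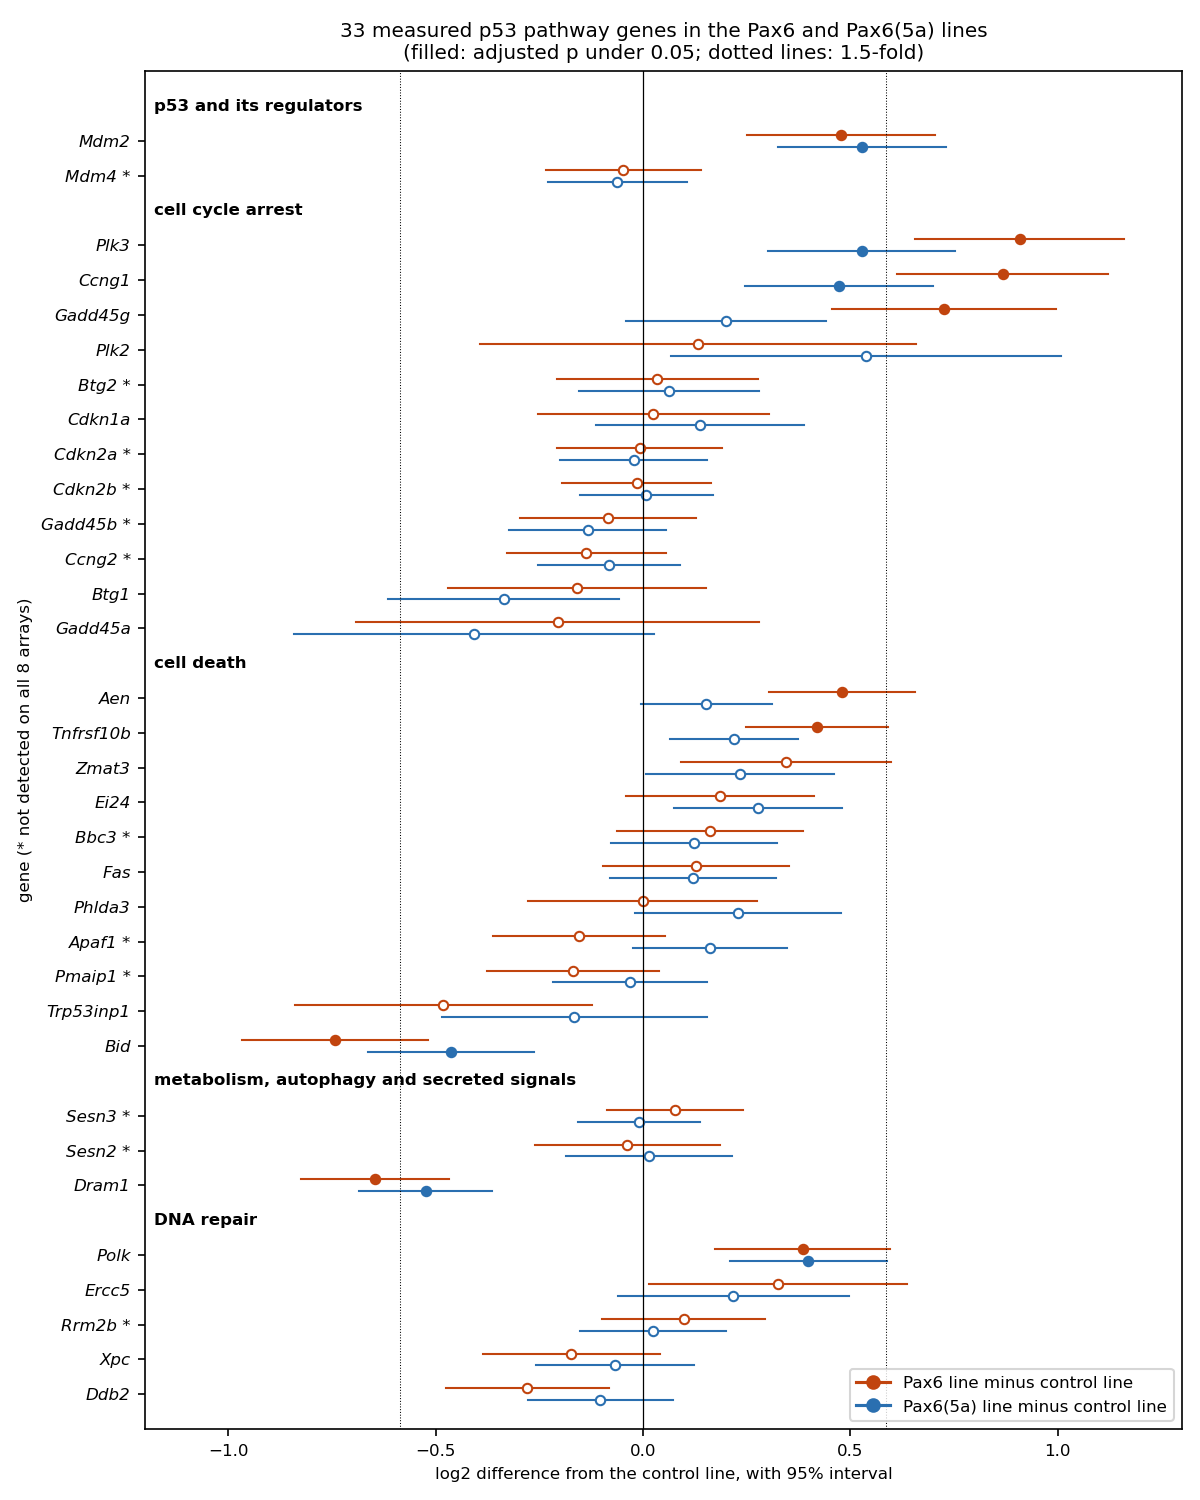
Log2 difference of each of the 33 measured genes from the control line, in the Pax6 line (red) and the Pax6(5a) line (blue), with 95% intervals from limma and with genes ordered by role. Filled points have an adjusted p under 0.05 and dotted lines mark 1.5-fold. In the Pax6 line Plk3, Ccng1 and Gadd45g lie beyond the right line, and Bid and Dram1 beyond the left.

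The p53 inhibitors differed in whether they could be measured. Mdm2 had log2 signals of 11.36 and 11.66 in the Pax6 line and 11.67, 11.57 and 11.44 in the Pax6(5a) line, against 11.02, 11.10 and 10.98 in the control line. Every array of both Pax6 lines was above every control array, and the 2 Pax6 lines overlapped. The difference from control was 0.48 ± 0.10 (SE) in the Pax6 line (FC 1.39, adjusted p = 0.015, limma) and 0.53 ± 0.09 in the Pax6(5a) line (FC 1.44, adjusted p = 0.00696), so that neither reached an FC of 1.5. In the Pax6 line the adjusted p was 0.169 without the second Pax6 array and 0.0547 without the first control array. With the preparations of a passage averaged it was 0.0605 for Pax6 and 0.111 for Pax6(5a), and at passage 13 only it was 0.0623 for Pax6(5a). Its second probe was at background on all arrays. Mdm4, the relative of Mdm2 that binds p53 and blocks its activity, was detected on 1 array only, with signals between 6.13 and 6.34.

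Cdkn1a, encoding the kinase inhibitor p21, had the brightest probe of the arrest group and was not called in either line. Its signals were 11.72 and 12.10 in the Pax6 line and 12.03, 12.08 and 11.96 in the Pax6(5a) line, against 12.03, 11.98 and 11.65 in the control line. The 3 lines overlapped, with the lowest arrays in the Pax6 line and the control line. The difference from control was 0.03 in the Pax6 line (95% interval -0.25 to 0.30, adjusted p = 0.964) and 0.14 for Pax6(5a) (-0.11 to 0.39, adjusted p = 0.688). These intervals leave out an FC of 1.5 in either direction. The second probe of Cdkn1a, also detected on all arrays, lay between 11.01 and 11.38.

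Plk3, a polo-like kinase of the stress response, and Ccng1, the cyclin G1 that works with Mdm2 in p53 turnover, rose in the Pax6 line. Plk3 gave 10.79 and 10.46 in the Pax6 line and 10.32, 10.37 and 10.05 in the Pax6(5a) line, against 9.69, 9.76 and 9.70 in the control line. All arrays of the Pax6 line were above those of the Pax6(5a) line, which in turn were above all control arrays. The log2 difference from control was 0.91 ± 0.12 (SE) in the Pax6 line (FC 1.88, adjusted p = 0.00042, limma) and 0.53 ± 0.10 in the Pax6(5a) line (FC 1.44, adjusted p = 0.0129). In the Pax6(5a) line the adjusted p of Plk3 was over 0.05 in 7 of 21 alternative fits, at most 0.182 with the preparations of a passage averaged.

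Ccng1 showed the same order of lines. Its signals were 10.85 and 10.88 in the Pax6 line and 10.41, 10.45 and 10.55 in the Pax6(5a) line, against 10.17, 10.10 and 9.73 in the control line. No line overlapped another. The difference from control was 0.87 ± 0.12 in the Pax6 line (FC 1.82, adjusted p = 0.000614, limma) and 0.47 ± 0.10 in the Pax6(5a) line (FC 1.39, adjusted p = 0.0247). A second Ccng1 probe, with 10.40 and 10.54 in the Pax6 line and 10.14, 10.21 and 10.34 in the Pax6(5a) line, against 9.84, 9.75 and 9.55 in the control line, gave differences of 0.76 and 0.52, and the remaining probe was at background. The adjusted p of Ccng1 in the Pax6(5a) line was over 0.05 in 6 of 21 alternative fits, at most 0.116 with passage number as a covariate.

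The 3 Gadd45 genes encode small proteins that bind stress kinases and cell cycle proteins, and each had its own pattern. Gadd45g gave 8.06 and 8.39 in the Pax6 line and 7.66, 7.69 and 7.75 in the Pax6(5a) line, against 7.28, 7.52 and 7.70 in the control line. Both Pax6 arrays were above all others, and the Pax6(5a) and control arrays overlapped. The difference from control was 0.73 ± 0.12 (SE) in the Pax6 line (FC 1.65, adjusted p = 0.00349, limma) and 0.20 ± 0.11 for Pax6(5a) (adjusted p = 0.461). Its call in the Pax6 line was lost without the second Pax6 array (FC 1.47, adjusted p = 0.0488) and without the first or the second control array (adjusted p = 0.0148 and 0.0155). It was also lost with the preparations of a passage averaged (adjusted p = 0.0297) and with only the arrays of the Pax6 and control lines in the fit (adjusted p = 0.0112).

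Gadd45a gave 9.21 and 8.93 in the Pax6 line and 9.08, 9.15 and 8.37 in the Pax6(5a) line, against 9.47, 9.50 and 8.86 in the control line. In each line the later passage was the lowest. Gadd45b was detected on 3 arrays only, with signals between 6.05 and 6.29.

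Of the other arrest genes none was called against the control line. Plk2, another stress-responsive polo-like kinase, gave 9.93 and 9.80 in the Pax6 line and 10.56, 10.38 and 9.87 in the Pax6(5a) line, against 9.94, 10.12 and 9.14 in the control line, and the lines overlapped. Btg1, an antiproliferative gene that acts through mRNA deadenylation, gave 9.92 and 9.38 in the Pax6 line and 9.59, 9.52 and 9.30 in the Pax6(5a) line, against 9.84, 9.92 and 9.67 in the control line. All 3 Pax6(5a) arrays were below the control arrays for Btg1, but the difference of -0.34 had an adjusted p of 0.208. Cdkn2a, which encodes a Cdk4 inhibitor and the Mdm2 inhibitor Arf, its neighbour Cdkn2b, the cyclin gene Ccng2 and Btg2 were at background throughout, with signals between 5.42 and 6.26.

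**Figure D2:**
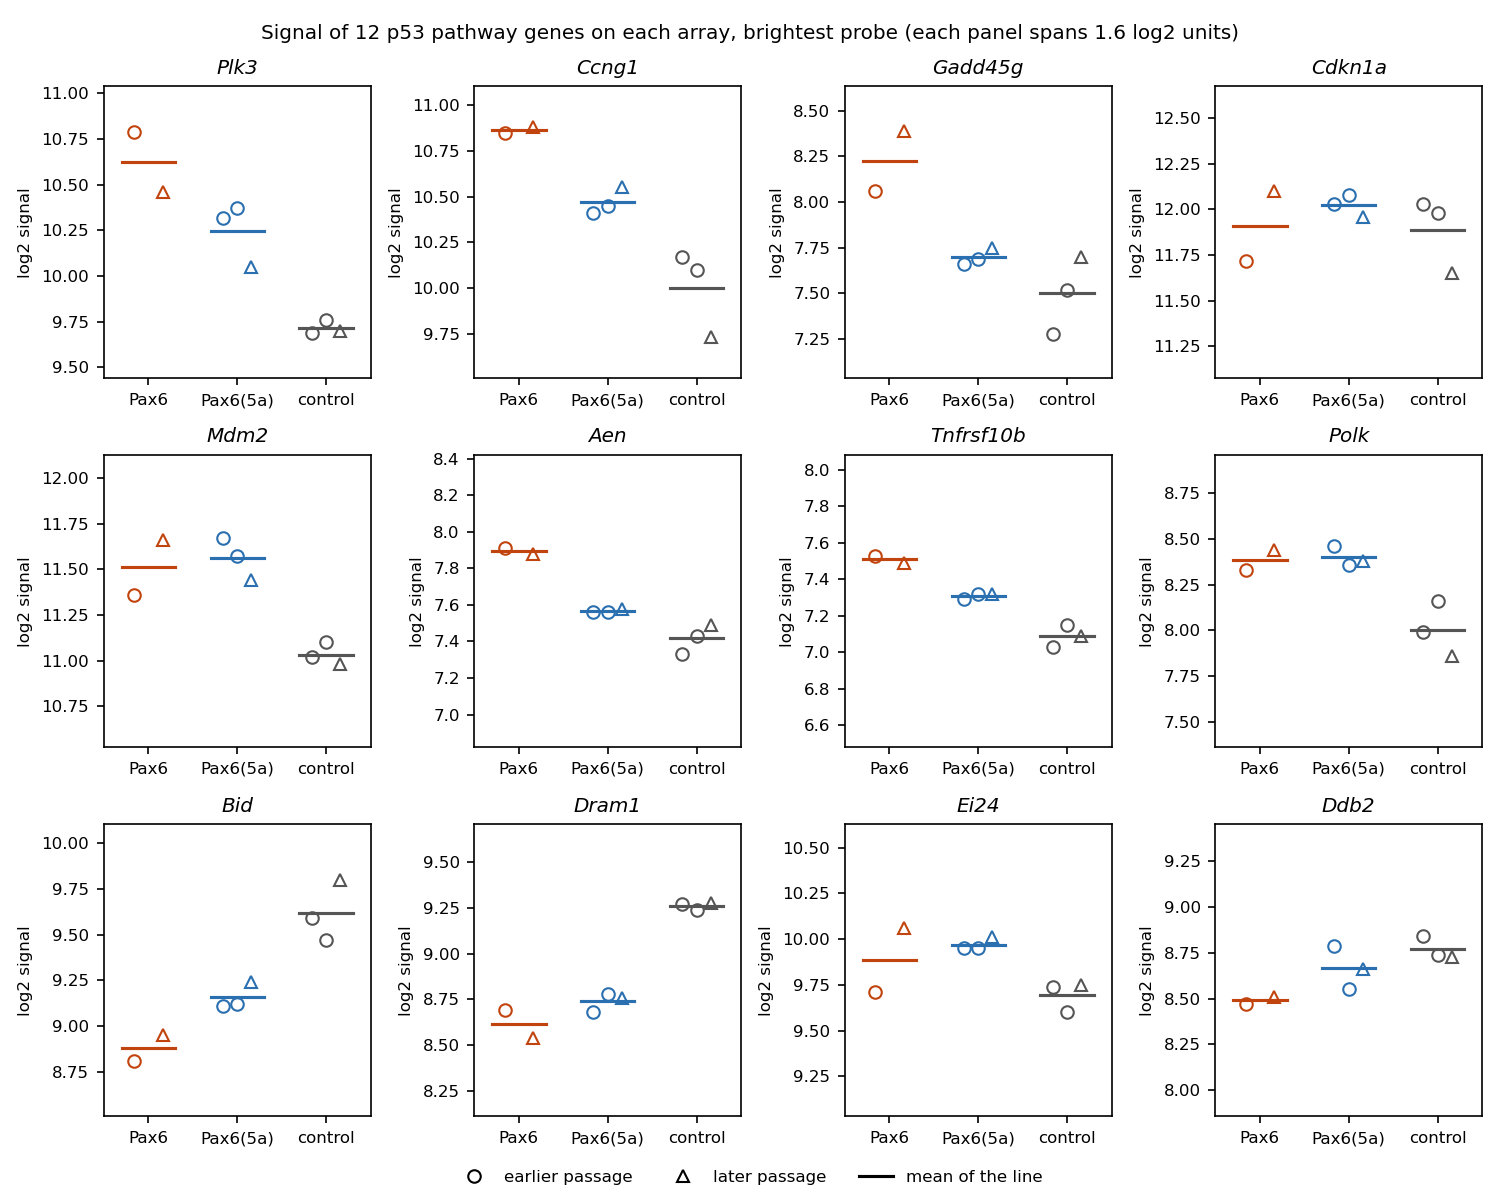
Log2 signal of 12 members on each array, with circles for the earlier and triangles for the later passage of a line and bars for the mean of a line. Every panel spans 1.6 log2 units. Plk3, Ccng1 and Gadd45g are highest in the Pax6 line, Bid and Dram1 are lower in both Pax6 lines, and the 3 lines overlap for Cdkn1a.

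Among the 11 measured cell death genes 1 was called, Bid, which fell in the Pax6 line. Bid is the BH3 protein that carries the signal of death receptors and caspase-8 to mitochondria. Its signals were 8.81 and 8.95 in the Pax6 line and 9.11, 9.12 and 9.24 in the Pax6(5a) line, against 9.59, 9.47 and 9.80 in the control line. The 3 lines did not overlap, with the Pax6 line lowest. The log2 difference was -0.74 ± 0.10 (SE) in the Pax6 line (FC 1.67, adjusted p = 0.000755, limma) and -0.46 ± 0.09 in the Pax6(5a) line (FC 1.38, adjusted p = 0.0136). Without the first Pax6 array the adjusted p in the Pax6 line was 0.0141. In the Pax6(5a) line it was over 0.05 in 5 of 21 alternative fits, at most 0.154 at passage 13 only.

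Aen, a nuclease induced by p53 that takes part in DNA breakdown during apoptosis, and Tnfrsf10b, the death receptor for TRAIL, were higher in the Pax6 line without reaching an FC of 1.5. Aen gave 7.91 and 7.88 in the Pax6 line and 7.56, 7.56 and 7.58 in the Pax6(5a) line, against 7.33, 7.43 and 7.49 in the control line. Its difference from control was 0.48 in the Pax6 line (FC 1.40, adjusted p = 0.00321) and 0.15 for Pax6(5a) (adjusted p = 0.356). No line overlapped another.

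Tnfrsf10b gave 7.53 and 7.49 in the Pax6 line and 7.29, 7.32 and 7.32 in the Pax6(5a) line, against 7.03, 7.15 and 7.09 in the control line. Again the lines did not overlap, and the difference was 0.42 in the Pax6 line (FC 1.34, adjusted p = 0.00622) and 0.22 for Pax6(5a) (adjusted p = 0.123). Without the first Pax6 array the adjusted p in the Pax6 line was 0.0584. A dimmer probe of the gene, detected on 7 arrays, passed the call threshold in the Pax6 line with a difference of 0.67 (adjusted p = 0.00309). In the Pax6(5a) line this probe differed by 0.46 (FC 1.37, adjusted p = 0.0251, limma).

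The other death genes were not past an adjusted p of 0.05 against control. Ei24, encoding an ER protein induced by p53, had the brightest probe of this group, with 9.71 and 10.06 in the Pax6 line and 9.95, 9.95 and 10.01 in the Pax6(5a) line, against 9.74, 9.60 and 9.75 in the control line. Only the earlier Pax6 array overlapped the control line. Zmat3, an RNA-binding p53 target, differed by 0.35 in the Pax6 line (adjusted p = 0.115) and by 0.23 for Pax6(5a) (adjusted p = 0.31), and Trp53inp1, which promotes p53 activity and autophagy, by -0.48 (adjusted p = 0.121) and -0.17 (adjusted p = 0.716). Fas, the death receptor, and Phlda3, an inhibitor of Akt, had adjusted p-values of 0.387 or more in both comparisons. Bbc3 and Pmaip1 were at background throughout. Apaf1, the core of the apoptosome, was detected on 3 of 3 Pax6(5a) arrays, on 0 of 2 Pax6 arrays and on 2 of 3 control arrays, with signals between 6.12 and 6.58.

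Dram1, a lysosomal membrane protein through which p53 induces autophagy, was the 1 member of the metabolism and autophagy group above background on all arrays. It gave 8.69 and 8.54 in the Pax6 line and 8.68, 8.78 and 8.76 in the Pax6(5a) line, against 9.27, 9.24 and 9.28 in the control line. Both Pax6 lines were below the control line on every array, and they overlapped each other. The difference was -0.65 ± 0.08 (SE) in the Pax6 line (FC 1.56, adjusted p = 0.000422, limma) and -0.52 ± 0.07 in the Pax6(5a) line (FC 1.44, adjusted p = 0.00152). The call in the Pax6 line was lost without the second Pax6 array, when the FC was 1.49. The sestrins Sesn2 and Sesn3, which restrain mTORC1, were detected on 1 array and on none.

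Of the 5 DNA repair members, Polk was higher in both Pax6 lines at an adjusted p under 0.05. It encodes the translesion DNA polymerase kappa. Its signals were 8.33 and 8.44 in the Pax6 line and 8.46, 8.36 and 8.38 in the Pax6(5a) line, against 7.99, 8.16 and 7.86 in the control line. All arrays of the Pax6 lines were above the control arrays, with differences of 0.39 (FC 1.31, adjusted p = 0.0334) and 0.40 (FC 1.32, adjusted p = 0.0228). The adjusted p of Polk was over 0.05 in 10 of 20 alternative fits in the Pax6 line, at most 0.201 without the second Pax6 array, and in 7 of 21 in the Pax6(5a) line, at most 0.165 at passage 13 only.

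Ddb2, a damage sensor of nucleotide excision repair and the brightest of this group, gave 8.47 and 8.51 in the Pax6 line and 8.79, 8.55 and 8.66 in the Pax6(5a) line, against 8.84, 8.74 and 8.73 in the control line. Its difference in the Pax6 line, -0.28, had an adjusted p of 0.0985. The excision repair genes Xpc and Ercc5 had adjusted p-values of 0.258 or more in both comparisons. Rrm2b, the p53-inducible subunit of ribonucleotide reductase, was at background.

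**Figure D3:**
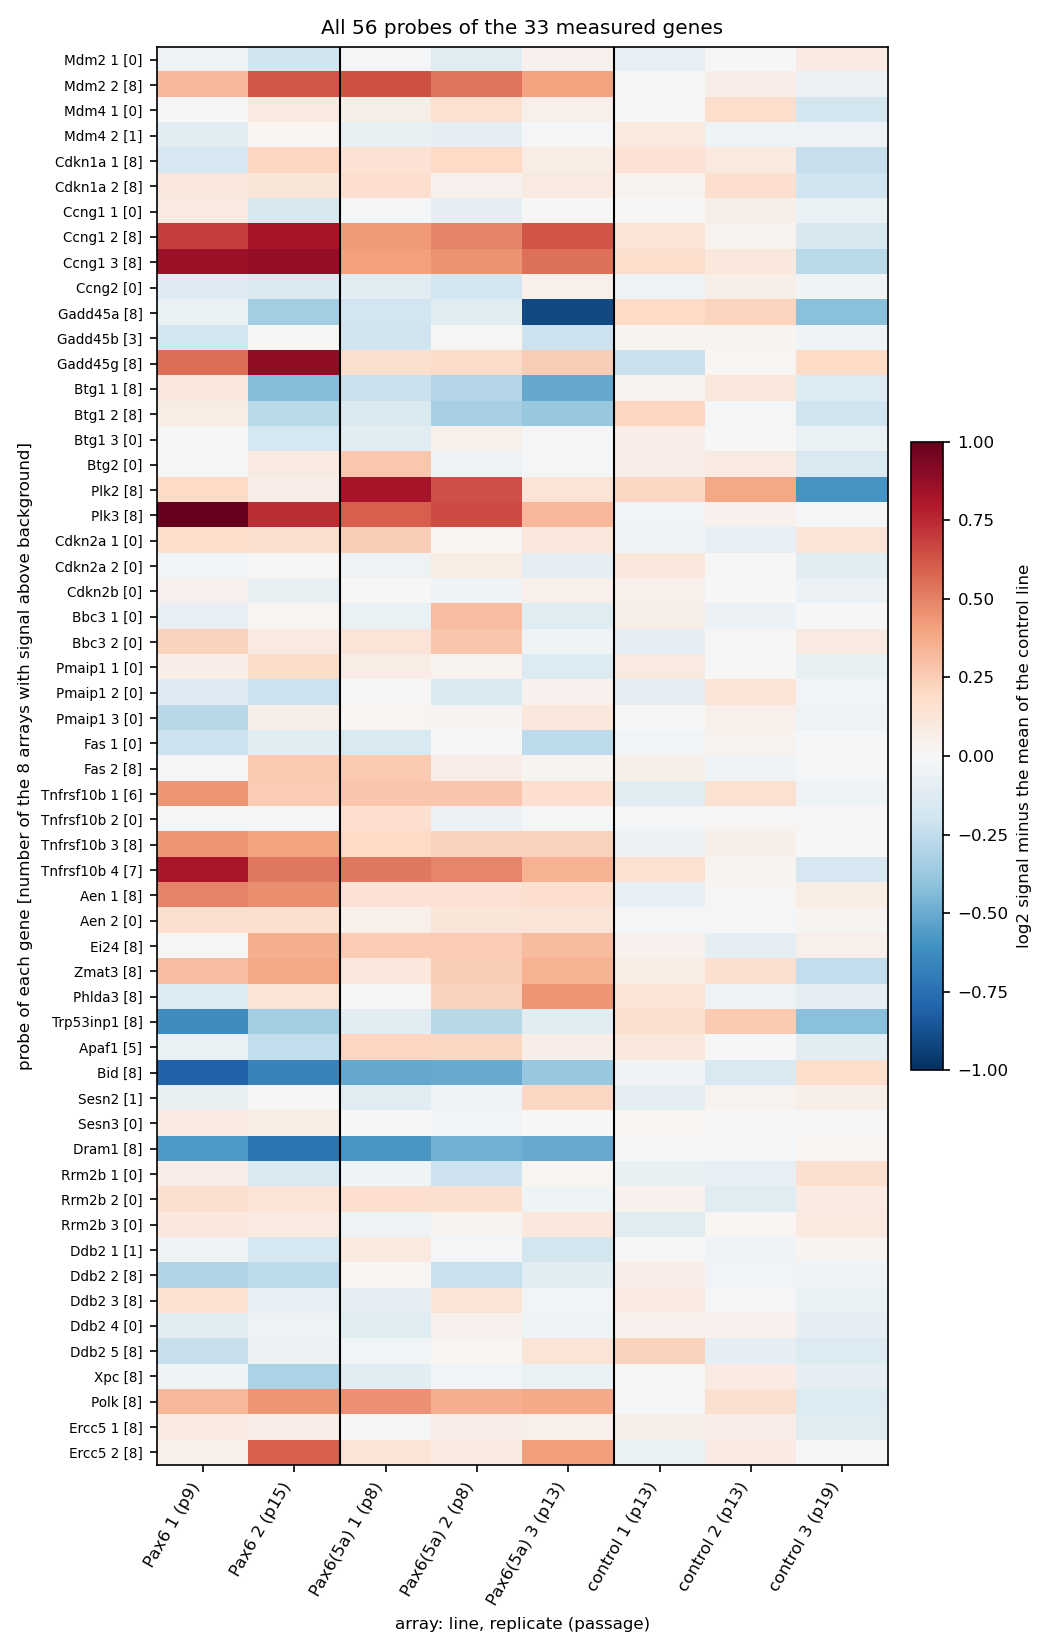
Log2 signal of all 56 probes on the 8 arrays minus the mean of the control line, with the Pax6 arrays on the left, then the Pax6(5a) and the control arrays. The number in brackets is the number of arrays on which a probe was detected. Both detected Ccng1 probes and the detected Tnfrsf10b probes are red in the Pax6 line, and probes with a 0 are pale throughout.

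Between the 2 isoforms no member was called in either direction, and none had an adjusted p under 0.05, with 7 at an unadjusted p under 0.05 (limma). Of all genes 0.251% were called higher and 0.426% lower for Pax6 against Pax6(5a), and 0.927% and 1.08% had an adjusted p under 0.05. The member with the smallest adjusted p was Gadd45g, higher by 0.53 in the Pax6 line (95% interval 0.26 to 0.80, adjusted p = 0.0594), followed by Aen, higher by 0.33 (0.15 to 0.50, adjusted p = 0.071). Ccng1 differed by 0.40 (0.14 to 0.65, adjusted p = 0.144) and Plk3 by 0.38 (0.13 to 0.63, adjusted p = 0.158). Mdm2 differed by -0.05 (-0.28 to 0.18) and Dram1 by -0.12 (-0.30 to 0.06), and both intervals leave out an FC of 1.5 between the isoforms.

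Culture itself changes with passage, and each line was read at an earlier and a later one. Within lines, with a mean for each line in the fit, no member was called between the later and the earlier passage, with 8 at an unadjusted p under 0.05 (limma), where 0.15% of all genes rose and 0.138% fell. At an adjusted p under 0.05, 3 members were lower at the later passage (9.09%) and none higher, against 1.3% lower and 1.45% higher of all genes. The 3 were Gadd45a, Plk2 and Btg1.

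Gadd45a was lower at the later passage, with a mean difference of -0.57 ± 0.08 (SE) on the log2 scale (FC 1.49, adjusted p = 0.00208, limma), just under the FC of a call. The later minus earlier difference was -0.27 in the Pax6 line, -0.75 in the Pax6(5a) line and -0.63 in the control line. Plk2 differed by -0.58 ± 0.11 (adjusted p = 0.0107), with -0.14 in the Pax6 line, -0.60 in the Pax6(5a) line and -0.88 in the control line. Btg1 differed by -0.32 ± 0.07 (adjusted p = 0.0367), with -0.54 in the Pax6 line, -0.26 in the Pax6(5a) line and -0.21 in the control line. A second Btg1 probe, also detected on all 8 arrays, differed by -0.26 and was not past 0.05 (adjusted p = 0.118, limma). The sign was the same in all lines for these genes. Gadd45a kept an adjusted p under 0.05 in all 15 alternative fits. Plk2 did not in 3 of 15, with 0.0964 without the third control array, 0.081 without the third Pax6(5a) array and 0.1004 with neqc background correction. Btg1 did not in 8 of 15, of which 7 left out 1 array, with at most 0.177 without either Pax6 array. Without either Pax6 array both Gadd45a (FC 1.61) and Plk2 (FC 1.67) were called.

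**Figure D4:**
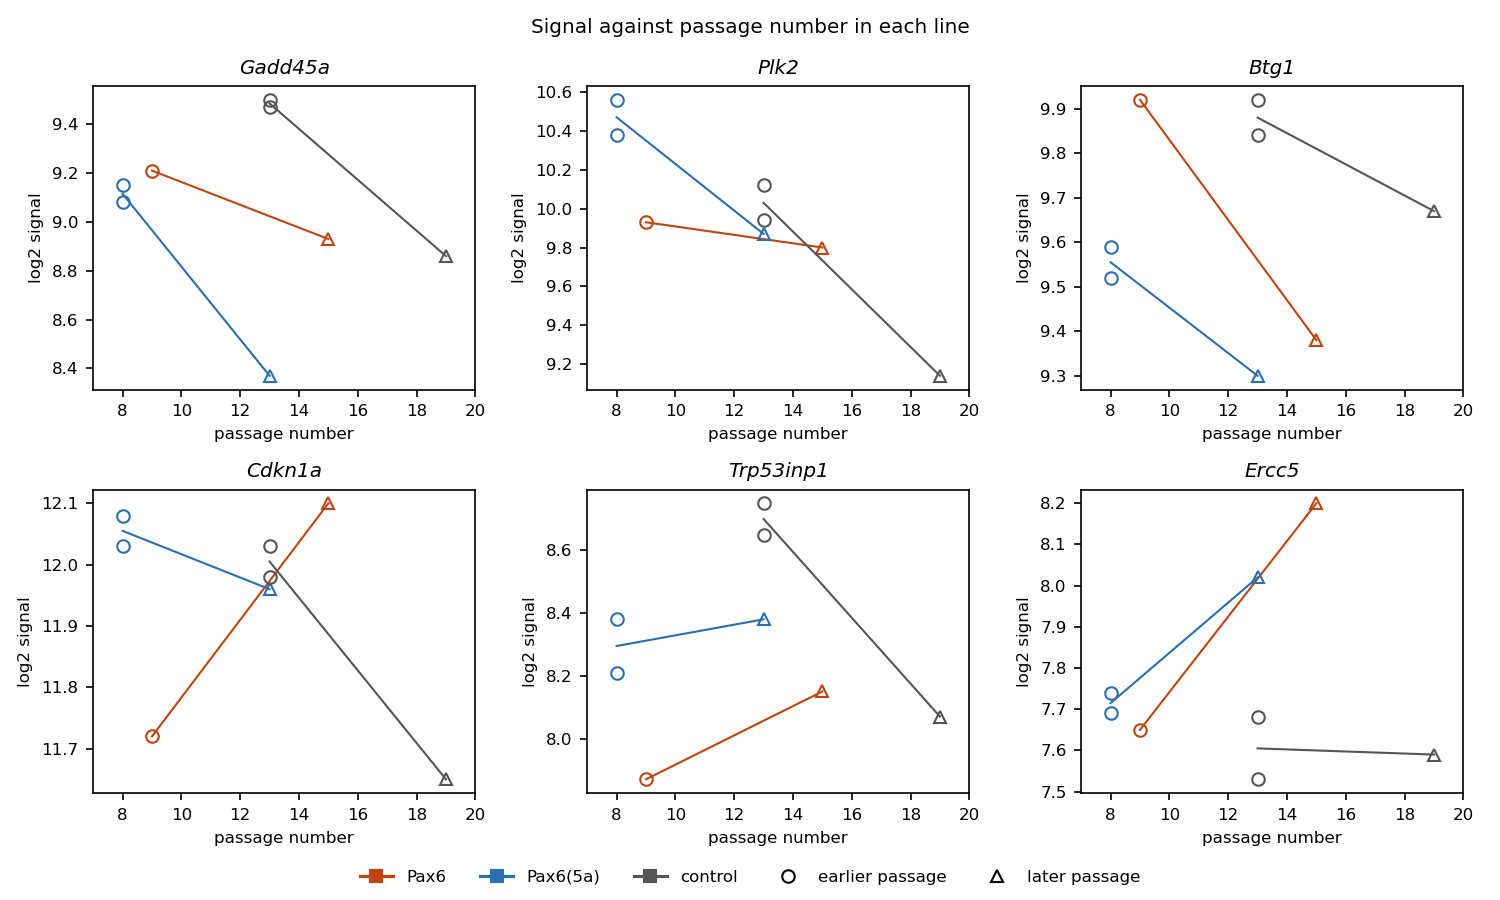
Log2 signal against passage number for 6 members, with 1 colour per line, circles for the earlier and triangles for the later passage, and lines that join the means. Gadd45a, Plk2 and Btg1 are lower at the later passage in every line, while Cdkn1a and Trp53inp1 are higher at the later passage of the Pax6 line and lower at that of the control line.

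For other members the direction with passage differed between lines. Trp53inp1 differed by 0.28 between the later and the earlier passage of the Pax6 line and by 0.08 in the Pax6(5a) line, but by -0.63 in the control line. Cdkn1a differed by 0.38 in the Pax6 line, -0.10 in the Pax6(5a) line and -0.36 in the control line. A line by passage term was fitted with 2 residual degrees of freedom. It had an unadjusted p under 0.05 for 8 members, and the smallest adjusted p was 0.142 (Trp53inp1), so that no such difference passed the test.

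The Pax6(5a) line was read at lower passages than the control line. Its comparison with control was repeated for all members with passage in the fit, and the outcome differed with the form of the term. Gadd45a and Btg1 are given here because they were called in at least 1 of these fits, and no other member was. Without such a term the Gadd45a difference was -0.41 (adjusted p = 0.378) and that of Btg1 -0.34 (adjusted p = 0.208). With the earlier or later passage of each line as a block the differences were the same, with an adjusted p of 0.0121 for Gadd45a and 0.0214 for Btg1, and no member was called in the Pax6(5a) line. With passage number as a covariate both were called lower, Gadd45a with -0.94 (adjusted p = 0.000416, limma) and Btg1 with -0.64 (adjusted p = 0.00219). At passage 13, where 1 Pax6(5a) array gave 8.37 and 2 control arrays 9.47 and 9.50, the Gadd45a difference was -1.11. Passage 13 is the later passage of the Pax6(5a) line and the earlier one of the control line, so that line and stage of culture cannot be told apart there, and Gadd45a was lower at the later passage in each line. The residual spread in the fit for passage 13 came only from preparations of the same passage, so that variation between cultures was not estimated there. Ccng1, Plk3, Bid and Polk had no adjusted p under 0.05 in the Pax6(5a) line in the fit with the covariate.

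The other genes of the pathway were read from wider lists, also written with results of these arrays known. None of 17 measured p53 regulators and none of 27 measured further p53 targets was called in either line against control (limma). At an unadjusted p under 0.05 the Pax6 line had 4 of the regulators and 4 of the targets, and the Pax6(5a) line 3 and 6. Rchy1, a ubiquitin ligase for p53, was lower in the Pax6 line (-0.47, adjusted p = 0.0444). In the second list Ckap2, a spindle protein, and Dcxr, a carbonyl reductase, were higher in the Pax6 line at an adjusted p under 0.05. Thbs1, encoding thrombospondin 1, fell with passage (-0.67, adjusted p = 0.000369, limma). It was above background on 2 of 3 control arrays and 2 of 3 Pax6(5a) arrays. The later passages of these lines gave its lowest signals, 5.83 and 6.08, so that the size of its fall is uncertain.

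Of 25 measured Bcl-2 family and caspase genes, the inflammatory caspases Casp4 and Casp1 fell in both Pax6 lines, and no gene of that list rose. Casp4 gave 6.03 and 6.11 in the Pax6 line and 6.48, 6.20 and 6.61 in the Pax6(5a) line, against 7.25, 6.91 and 7.27 in the control line. It was not above background on either Pax6 array, and was at least 1.76-fold lower there than in the control line (adjusted p = 0.000287, limma). Casp1 was detected on 1 of 2 Pax6 arrays, with a difference of -0.78 (adjusted p = 0.000119), and was not above background in the Pax6(5a) line, where it was at least 1.71-fold lower (adjusted p = 5.13e-05). For these bounds an undetected array takes the smallest signal above background that it had, if that is higher than its own.

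The cell cycle machinery outside the members showed few calls. Of 15 measured cyclin kinase inhibitors and Rb family genes 1 was called, Cdkn2d, encoding the Cdk4 inhibitor p19, which rose in the Pax6(5a) line (0.63, adjusted p = 0.00741). Its signals were 8.18 and 8.45 in the Pax6 line and 8.44, 8.41 and 8.61 in the Pax6(5a) line, against 7.74, 7.74 and 8.11 in the control line. Of 14 cyclins and cyclin kinases and of 20 proliferation markers none was called in either line (limma), with 6 cyclins or kinases and 3 markers at an unadjusted p under 0.05 in the Pax6 line, and 5 and 4 in the Pax6(5a) line. At an adjusted p under 0.05 each of these lists had 2 genes higher and 0 lower in the Pax6 line: Ccnd1, encoding cyclin D1 (0.58, adjusted p = 0.00291), and Ccne2, and the nucleotide synthesis genes Tk1 and Rrm2. At that threshold 3.9% of all genes were higher and 3.82% lower there. The summed signal of the 20 proliferation markers was 34348 to 37718 in the Pax6 line and 33107 to 37031 in the Pax6(5a) line, against 32789 to 36632 in the control line, so that the lines overlapped.

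Of 25 measured DNA repair genes that are not members, none was called against the control line (limma), with 6 at an unadjusted p under 0.05 for Pax6 and 9 for Pax6(5a). H2ax, the histone that is phosphorylated at DNA breaks, was lower with Pax6 than with Pax6(5a). H2ax gave 9.18 and 9.28 in the Pax6 line, against 9.99, 10.11 and 10.27 in the Pax6(5a) line, a difference of -0.89 (FC 1.86, adjusted p = 0.000362, limma). The control arrays lay between them, at 9.80, 9.86 and 9.78. Against control the Pax6 line differed by -0.58 (FC 1.498, adjusted p = 0.0024, limma), just under the FC of a call. The H2ax difference between the isoforms was the only call of that list in any of the 4 comparisons.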

How the data were processed

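Signal intensities of 24613 probes on 8 Illumina Mouse Ref-8 arrays and their detection p-values were deposited by the authors, and the intensities were given by the authors before and after quantile normalization. Background correction before export and the method behind the detection p-values are not given in the sources used here. The authors' quantile-normalized values were used, on the log2 scale. Quantile normalization repeated on the non-normalized intensity values differed from them by at most 5e-06. Lines were compared two-sided by limma 3.58.1 (R 4.3.3). All 8 arrays entered 1 model that held a mean per line, with Benjamini-Hochberg adjustment over all probes. Passages were compared with a mean per line and a term for the later passage. The call threshold is the less strict of the 2 in the study's methods, the stricter one was an alternative, and the main model held no covariates, on which those methods are silent. A gene was given by the brightest of its probes on average. Of the probes, 20984 name 1 gene and the other 3629 none or several.

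All members are accounted for, and values per array are given for members with an adjusted p under 0.05 in any of the 4 comparisons, for Mdm2 and Cdkn1a, and for the member with the highest mean signal in each role group. Of other lists, genes past the call threshold are named, up to the 4 with the largest difference per list and comparison. A few list genes past an adjusted p of 0.05 only were also named, after their values were seen. The members and lists were chosen with earlier results of these data known. The number of arrays limits the precision. The scripts were tested on simulated data. Alternatives were other background corrections and normalizations, a detection filter, a variance trend, other samples in the fit, blocks for earlier or later passage, culture or replicate number, the passage number as covariate, preparations of a passage averaged, passage 13 only, single arrays left out and other thresholds. Promoters came from RefSeq tables. Figures were drawn with matplotlib 3.10.9 in Python 3.11.15.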

Additional observations from a re-analysis of the deposited data

How the results depend on the processing

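The 5 calls among members in the Pax6 line became 9 at an adjusted p under 0.05 with no minimum FC and 2 at an adjusted p under 0.001 with an FC of at least 1.7, and lay between 3 and 6 with single arrays left out. The 3 came without the second Pax6 array, where Gadd45g and Dram1 were lost, and the 6 without the third control array, where Trp53inp1 was added (-0.69). Normalization and background correction gave 4 or 5 calls. With neqc background correction Ccng1 (adjusted p = 0.0101) and Gadd45g were lost and Aen was gained. In the Pax6(5a) line the 0 calls became 6 at an adjusted p under 0.05 and 2 with passage number as a covariate. There were 0 with earlier or later passage as a block, and 0 to 2 with single arrays left out. The 2 came without the third Pax6(5a) array and were Mdm2 and Plk3 (FC 1.54), both higher. Between isoforms the count was 0 under every alternative run. For passage the 0 calls became 3 at an adjusted p under 0.05, 1 with the passage number as covariate, and 0 to 2 with single arrays left out.

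With a replicate block the Pax6 line had 4 calls, since Gadd45g was lost, and the Pax6(5a) line 0. Deviations of Pax6(5a) and control arrays with the same number correlated at 0.18 and 0.24, and those with crossed numbers at 0.18 and 0.16. The labels do not say that a number marks a shared batch. All these arrays were of the earlier passage of their line, so that the correlations cannot show whether a batch was shared.

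Under the alternatives, the 18 results of single members with an adjusted p under 0.05 in the main fits gave 351 values. Of these values, 299 kept an adjusted p under 0.05, 52 did not and 0 changed sign. Results over 0.05 in the main fits were left out. Among them, Gadd45a and Btg1 in the Pax6(5a) line came under 0.05 with passage in the fit. Ccng1, Gadd45g, Plk3, Aen, Bid and Dram1 in the Pax6 line, Dram1 in the Pax6(5a) line and Gadd45a with passage kept an adjusted p under 0.05 in every alternative. Causes of the lost calls were not tested.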

Other observations

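The amino acid and ER stress response genes had more passage calls than any other list read. Of 19 measured genes, 5 fell at the later passage and none rose, where 0.138% of all genes fell and 0.15% rose. The median log2 difference of the list was -0.31, against 0.00 for all genes. Chac1, which degrades glutathione, differed by -1.55 (adjusted p = 1.62e-06, limma). Its later passages gave 9.92 in the Pax6 line, 9.31 in the Pax6(5a) line and 9.25 in the control line, against earlier passages of 11.04, of 11.06 and 11.14, and of 10.86 and 10.91. Trib3, a pseudokinase induced by Atf4, differed by -0.96 (adjusted p = 1.32e-05), and Ddit3 (CHOP), Herpud1 and Asns by -0.63, -0.60 and -0.59. These genes were lower at the later passage in all 3 lines, as Gadd45a was. Whether density or nutrition of the dishes differed between passages is not given in the sources used here. Between lines Phgdh, the first enzyme of serine synthesis, rose in the Pax6 line (0.78) and Cebpb fell (-0.72).

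Among 18 measured genes of the secreted factors of senescent cells, Ccl7, Igfbp7 and Ccl2 fell in the Pax6 line, with differences from control of -1.85, -1.49 and -1.13, and Plau, encoding urokinase, rose with Pax6 (1.06) and with Pax6(5a) (0.88). The shares of all genes were 1.03% risen and 1.42% fallen in the Pax6 line, and 0.551% and 0.651% in the Pax6(5a) line. Ccl7 gave 9.97 and 10.48 in the Pax6 line and 12.09, 12.01 and 11.58 in the Pax6(5a) line, against 12.19, 12.07 and 11.97 in the control line. Mmp3, a matrix metalloproteinase, rose with passage (0.76, adjusted p = 0.0018). Of 23 immediate early genes Dusp1, the phosphatase of stress kinases, rose in the Pax6 line (0.63), and Egr2, which was not above background on the Pax6 arrays, fell at least 1.32-fold. Egr1, detected on all 8 arrays, differed by -1.71 in the Pax6 line (FC 3.28, adjusted p = 0.0117, limma) and just missed the adjusted p of a call. Of 16 FoxO targets 1 was called, Igf1r, which fell with passage (-0.72).

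Fibroblast markers moved with the Pax6 line beside the members. Fn1, Pdgfra and Pdgfrb fell there (-1.26, -0.94 and -0.87), and the other 9 of the 12 were not called, where 1.42% of all genes fell. The summed signal of the 12 was 43951 to 44458 in the Pax6 line and 48031 to 50804 in the Pax6(5a) line, against 42150 to 53477 in the control line. Cdh5 rose in both Pax6 lines (1.43 and 0.73), while the other 4 endothelial markers were at background. Of 4 measured neuronal markers none was called against control, and 0 had an unadjusted p under 0.05 in either line (limma). The part of these shifts in the members' values was not tested.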
